A study of Mus musculus with 6 samples.

Results

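The 6 actin genes of the mouse (the muscle isoforms Acta1, Acta2, Actc1 and Actg2 and the cytoplasmic isoforms Actb and Actg1), the transcription factor gene Srf and its coactivator genes Mrtfa, Mrtfb and Myocd were followed in cultured cartilage cells with lowered Irf1. These 10 genes were found by symbol among the 55377 genes of the count tables, each with 1 identifier. The libraries came from primary chondrocytes, the matrix-making cells of cartilage, grown from mouse articular cartilage. They were transfected with Irf1 siRNA (3 libraries) or control siRNA (3 libraries), and total RNA was taken 36 h later. The labels give no strain, age or sex. They do not say that replicates came from different cultures or mice, so each p-value reflects only how these libraries varied, and that variation may be technical.

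Actins are the filament proteins of every cell. The cytoplasmic isoforms build the cortex and stress fibres, and the muscle isoforms belong to skeletal (Acta1), cardiac (Actc1), vascular smooth (Acta2) and enteric smooth muscle (Actg2), although Acta2 is also made by fibroblasts and cultured chondrocytes with stress fibres. SRF (serum response factor) binds a short DNA motif, the CArG box, near the start of actin and other contractile genes. The myocardin-related factors MRTF-A and MRTF-B bind monomeric actin in the cytoplasm and enter the nucleus to activate SRF once actin has been taken up into filaments, whereas myocardin is nuclear and is known from smooth and cardiac muscle. Ternary complex factors (TCFs) compete with MRTFs for SRF and direct it to growth-factor-induced early genes.

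Matches to the CArG box in promoters of these genes are shown first. Promoters from 250 bases before to 50 after the annotated start (RefSeq, GRCm38.p6) were at hand for 7 of the 10 genes: Acta1, Acta2, Actc1, Actg1, Srf, Mrtfa and Mrtfb. They were searched on both strands for the CArG box, which reads the same way on either strand: 2 C, a core of 6 bases that are A or T, and 2 G. An exact box was found for Acta1, Actc1, Actg1 and Srf, against 1.63% of all 32851 promoters. With 1 core base allowed to be C or G, Acta2 and Mrtfa also had a match, and 9.98% of all promoters did. Every exact site and both sites of Acta2 are given from 5′ to 3′ on the gene's strand, with the box in capitals.
Acta2, chr19:34255438-34255467, minus strand, 1 core base not A or T: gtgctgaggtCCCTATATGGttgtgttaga
Acta2, chr19:34255388-34255417, minus strand, 1 core base not A or T: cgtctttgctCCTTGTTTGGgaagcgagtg
Acta1, chr8:123894829-123894858, minus strand, exact: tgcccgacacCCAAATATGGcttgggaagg
Actc1, chr2:114052903-114052932, minus strand, exact: gctaaggcgaCCAAATAAGGcaaggtggca
Actg1, chr11:120348566-120348595, minus strand, exact: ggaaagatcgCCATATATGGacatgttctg
Srf, chr17:46556225-46556254, minus strand, exact: ctggggctcgCCATATAAGGagcggcctcg
Srf, chr17:46556205-46556234, minus strand, exact: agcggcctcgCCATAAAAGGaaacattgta

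Both Acta2 boxes carry a C or G inside the core, and they begin 84 and 34 bases before the start. The exact boxes begin 73 bases before the start in Acta1, 47 in Actc1, 90 in Actg1, and 82 and 62 in Srf. No match of either kind was found for Mrtfb, which says only that these letters are not in its windows. A match is a description of the sequence and not a shown binding site.

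**Figure D1:**
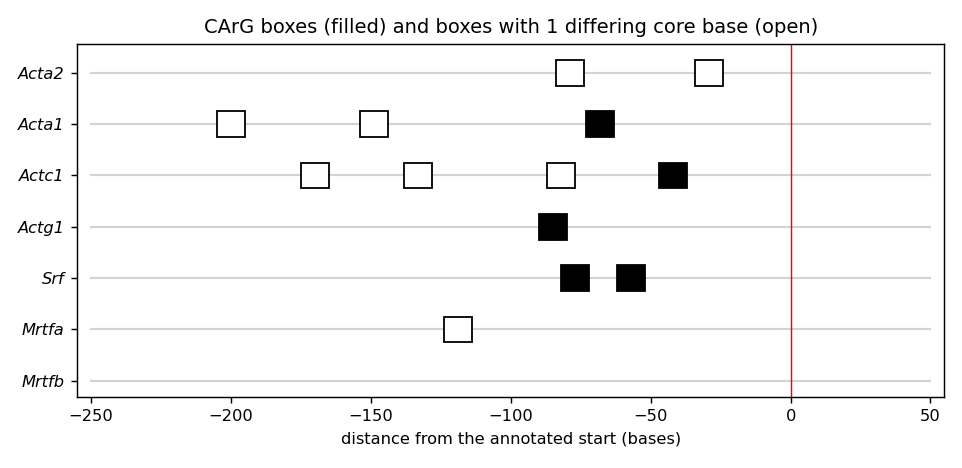
CArG boxes in the promoters of 7 members. The x axis is the distance from the annotated start in bases, filled bars are exact boxes, open bars have 1 core base that is C or G, and matches of all annotated starts of a gene share its line. The exact boxes of Acta1, Actc1, Actg1 and Srf begin between 90 and 47 bases before the start, and Acta2 has open bars alone.

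Library totals were 22349142 to 26752065 counts with Irf1 siRNA and 28565096 to 29282494 with control siRNA. The targeted gene Irf1 had 125 to 141 counts with Irf1 siRNA and 312 to 362 with control siRNA, which left 46.5% of its level (log2 fold change −1.10, SE 0.11, edgeR adjusted p = 3.0e-06). Chondrocyte markers were abundant in all libraries: 16 listed genes, Col2a1 and Acan among them, summed to 96570 to 127200 CPM with Irf1 siRNA and 97440 to 127500 CPM with control siRNA. CPM are counts scaled to a common library size, here after TMM normalisation. Across the series 22.4% of 14683 tested genes were called, 12.0% lower and 10.4% higher, at an adjusted p under 0.05 (edgeR quasi-likelihood test, adjusted over all tested genes).

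With Irf1 siRNA, 5 of the 9 members that could be tested fell, against the 12.0% of all tested genes called lower, and 0 rose. They were the smooth muscle actins Actg2 and Acta2, the cytoplasmic actin Actg1, and the coactivators Myocd and Mrtfb. The skeletal muscle actin Acta1, the cytoplasmic actin Actb, Srf and Mrtfa did not pass the threshold. The median log2 fold change of the 9 was −0.27, against 0.00 over all tested genes. For 8 of the 9 every library with Irf1 siRNA lay below every control library, which was so for 19.5% of all tested genes, and 38.1% had separate groups in either direction. In RNA from whole cultures, fewer cells that make a transcript and less transcript per cell cannot be told apart.

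Acta2 (ENSMUSG00000035783.10), the smooth muscle alpha actin, had 234.9, 298.0 and 294.4 CPM with Irf1 siRNA, against 547.6, 770.5 and 734.3 CPM with control siRNA. The groups stood well apart, and replicate 1 was the lowest library of each. The level was 275.8 ± 35.4 CPM with Irf1 siRNA and 684.1 ± 119.6 CPM with control siRNA (SD, n = 3 each), a fall of 2.48-fold (log2 fold change −1.31, SE 0.15, edgeR adjusted p = 0.000914). Of all tested genes, 0.266% had a lower log2 fold change.

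Actg2 (ENSMUSG00000059430.15), the enteric smooth muscle gamma actin, was far less abundant, with 114, 198 and 162 counts with Irf1 siRNA and 474, 607 and 622 with control siRNA. These are 5.15, 7.19 and 6.92 CPM with Irf1 siRNA, against 16.9, 21.5 and 21.0 CPM with control siRNA. Again no library of one group reached the other, and replicate 1 was lowest in each. The fall was 3.07-fold, the largest among the members (log2 fold change −1.62, SE 0.13, edgeR adjusted p = 3.66e-07).

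Acta1 (ENSMUSG00000031972.6), the skeletal muscle alpha actin, had 7.22, 8.93 and 8.84 CPM with Irf1 siRNA and 9.20, 9.47 and 9.45 CPM with control siRNA. The groups did not overlap, but the gap between 8.93 and 9.20 CPM was smaller than the spread within the Irf1 siRNA libraries. The log2 fold change was −0.17 (SE 0.11, edgeR adjusted p = 0.297), and −0.08 (adjusted p = 0.672) without Irf1 siRNA replicate 1. Actc1 (ENSMUSG00000068614.8), the cardiac actin, had 0 counts in all 6 libraries, which allows up to 3 counts per library, or 0.102 to 0.134 CPM. This limit covers counting error only.

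Among the cytoplasmic actins, the 2 isoforms gave different results. Actg1 (ENSMUSG00000062825.16) had 662.2, 649.2 and 693.6 CPM with Irf1 siRNA, against 904.2, 965.4 and 975.9 CPM with control siRNA, with a wide gap between the groups. It was 1.42-fold lower (log2 fold change −0.51, SE 0.06, edgeR adjusted p = 1.27e-05). Actb (ENSMUSG00000029580.15), often taken as a constant gene, had 1746, 1756 and 1812 CPM with Irf1 siRNA and 1774, 2016 and 2038 CPM with control siRNA. Control replicate 1 lay among the Irf1 siRNA libraries, and the log2 fold change of −0.13 (SE 0.06) had an edgeR adjusted p of 0.15. When single libraries were left out it ranged from −0.20 without control replicate 1 (adjusted p = 0.0493) to −0.10 without control replicate 3 (0.356), and control replicate 2 gave −0.11 when left out (0.363).

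**Figure D2:**
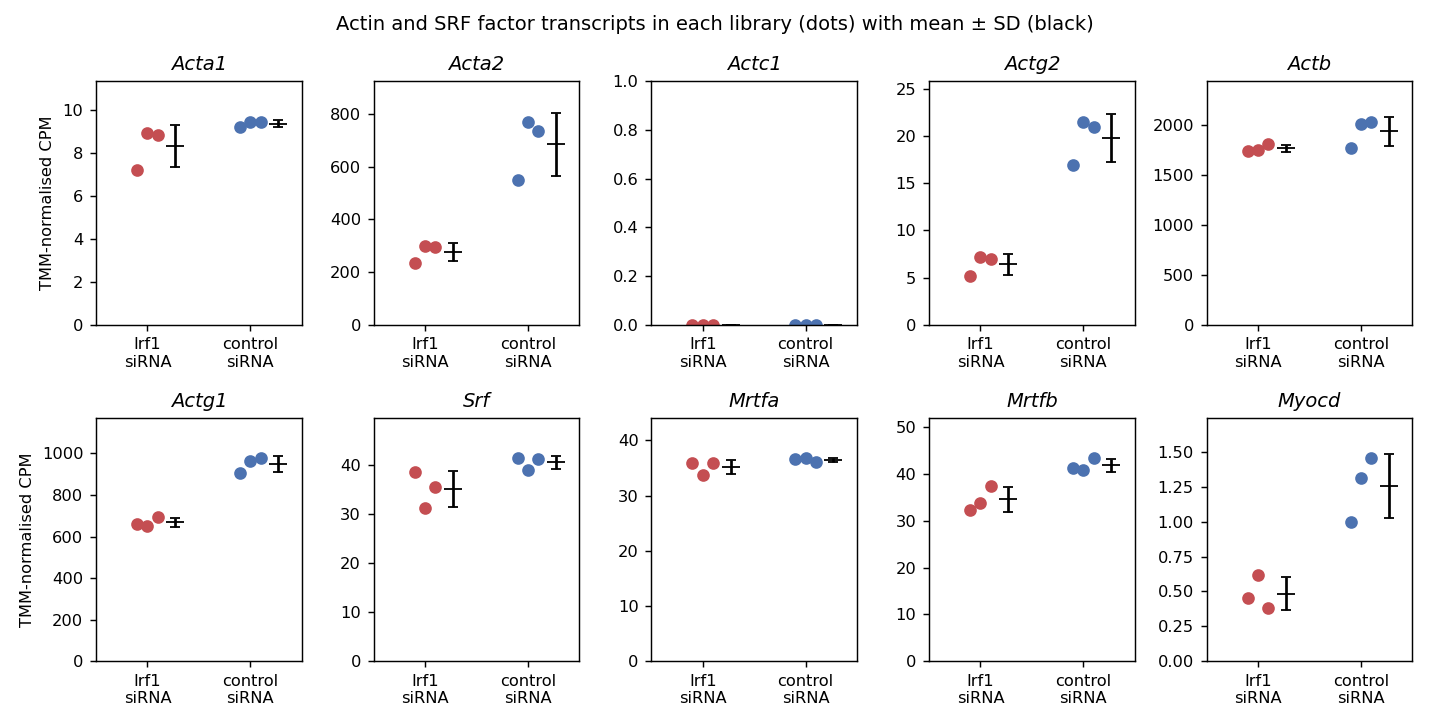
TMM-normalised CPM (y axes, from 0, each gene on its own scale) of the 10 genes in the 3 Irf1 siRNA libraries (red, left) and the 3 control siRNA libraries (blue, right), with the mean ± SD in black. Acta2, Actg2, Actg1 and Myocd show the clear gaps, Actb overlaps, and Actc1 is at 0 throughout.

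Apart from Myocd, the regulators had smaller log2 fold changes than the smooth muscle actins. Srf (ENSMUSG00000015605.7) had 38.5, 31.1 and 35.5 CPM with Irf1 siRNA and 41.3, 39.0 and 41.1 CPM with control siRNA. The closest libraries of the groups, 38.5 and 39.0 CPM, nearly met. Its log2 fold change of −0.21 (SE 0.08) missed the threshold in edgeR, with an adjusted p of 0.0605. Without Irf1 siRNA replicate 1, the highest of its group, it was −0.28 with an adjusted p of 0.0176, without Irf1 siRNA replicate 2, the lowest, it was −0.13 with an adjusted p of 0.226, and with no filter on low counts the adjusted p was 0.0192.

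Mrtfa (ENSMUSG00000042292.19), which encodes MRTF-A, had 35.8, 33.7 and 35.9 CPM with Irf1 siRNA, against 36.6, 36.7 and 36.0 CPM with control siRNA. Its log2 fold change was −0.05 (SE 0.06, edgeR adjusted p = 0.597), the smallest of the 9 tested members. Mrtfb (ENSMUSG00000009569.15), which encodes MRTF-B, had 32.3, 33.8 and 37.4 CPM with Irf1 siRNA and 41.3, 40.7 and 43.2 CPM with control siRNA. No Mrtfb values overlapped, and the gene was 1.21-fold lower (log2 fold change −0.27, SE 0.07, edgeR adjusted p = 0.00973).

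Myocd (ENSMUSG00000020542.19), the gene of myocardin, was close to the limit of detection, with 10, 17 and 9 counts with Irf1 siRNA and 28, 37 and 43 with control siRNA. All 3 Irf1 siRNA counts lay below all 3 control counts. The level was 0.484 ± 0.120 CPM with Irf1 siRNA and 1.25 ± 0.232 CPM with control siRNA (SD, n = 3 each), or 2.54-fold lower (log2 fold change −1.35, SE 0.30, edgeR adjusted p = 0.00411). The standard error is the largest of the 9 tested members, and the summed counts were 36 with Irf1 siRNA and 108 with control siRNA.

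**Figure D3:**
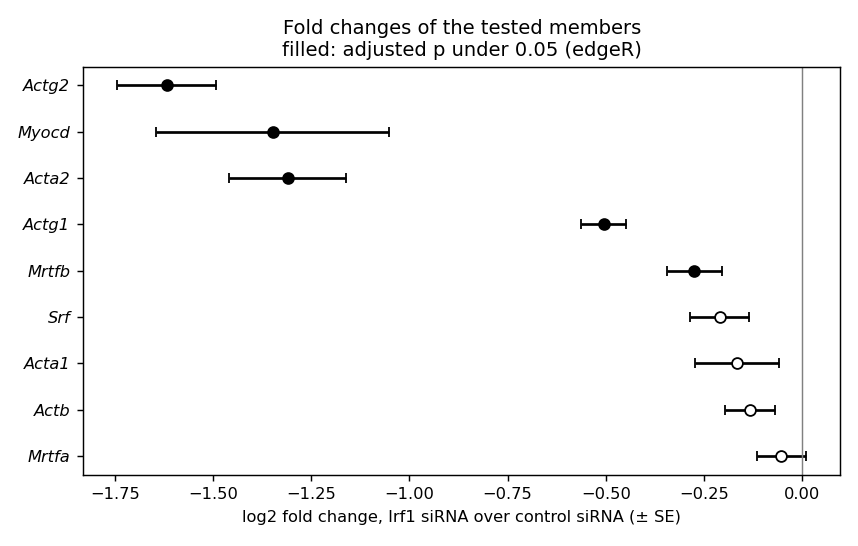
Log2 fold change of Irf1 siRNA over control siRNA (x axis, ± SE) for the 9 tested members, filled where the edgeR adjusted p was under 0.05. Actg2, Myocd and Acta2 lie between −1.62 and −1.31, Actg1 and Mrtfb are filled at −0.51 and −0.27, and the other 4 are open.

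Levels were compared between genes per kilobase of annotated exon, as RPKM on the TMM scale. Actb was the most abundant member, with 661.2 ± 13.3 RPKM with Irf1 siRNA and 725.1 ± 54.7 RPKM with control siRNA (SD, n = 3 each). Actg1 had 251.4 ± 8.60 RPKM with Irf1 siRNA and 356.8 ± 14.6 RPKM with control siRNA. Acta2 had 125.6 ± 16.1 RPKM with Irf1 siRNA and 311.5 ± 54.5 RPKM with control siRNA.

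With Irf1 siRNA the order Actb, Actg1, Acta2 was clear. With control siRNA the spread of Acta2, 249.4 to 350.9 RPKM, reached into that of Actg1, 340.2 to 367.2 RPKM. Within each control library Actg1 was still above Acta2 (340.2 against 249.4, 363.2 against 350.9 and 367.2 against 334.4 RPKM). Srf followed at 12.1 ± 1.28 RPKM with Irf1 siRNA and 14.0 ± 0.432 RPKM with control siRNA. Actg2 had 4.12 ± 0.713 RPKM with Irf1 siRNA and 12.7 ± 1.62 RPKM with control siRNA, so it stood beside Srf in control cultures and beside Mrtfb (3.84 ± 0.291 RPKM with Irf1 siRNA) in the others. Acta1 and Mrtfa were near each other at 5.42 ± 0.626 and 5.75 ± 0.209 RPKM with Irf1 siRNA, and at 6.10 ± 0.097 and 5.96 ± 0.061 RPKM with control siRNA. Myocd was lowest of those detected, at 0.0754 ± 0.0187 RPKM with Irf1 siRNA and 0.195 ± 0.0361 RPKM with control siRNA.

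The make-up of actin transcripts within a library does not depend on the scaling between libraries. Muscle isoforms took 11.3%, 14.0% and 13.3% of actin reads per kilobase with Irf1 siRNA, against 21.0%, 24.9% and 23.9% with control siRNA. The 2 groups were far apart relative to their spread, 12.9% ± 1.39 with Irf1 siRNA and 23.3% ± 2.05 with control siRNA (SD, n = 3 each). The exact two-sided permutation test gave p = 0.1, the smallest value that 3 against 3 allows. Nearly all of the muscle share was Acta2, at 12.0% ± 1.28 with Irf1 siRNA and 21.9% ± 2.05 with control siRNA. In plain counts, with 58826 to 111926 actin reads per library, the 95% Wilson interval of the muscle share was at most 0.247 percentage points to either side. That interval covers counting error only, and the SD between libraries was 1.17 points with Irf1 siRNA and 1.83 with control siRNA.

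The share of Actb was 63.1% ± 0.902 with Irf1 siRNA and 51.4% ± 0.792 with control siRNA. That of Actg1 overlapped between the groups, at 23.4% to 24.5% with Irf1 siRNA and 24.4% to 26.8% with control siRNA. Within the cytoplasmic pair alone, Actg1 made up 27.6% ± 0.358 with Irf1 siRNA and 33.0% ± 0.800 with control siRNA, with no overlap. Summed over all 6 isoforms, actin transcripts came to 1016 to 1082 RPKM with Irf1 siRNA and 1268 to 1486 RPKM with control siRNA.

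**Figure D4:**
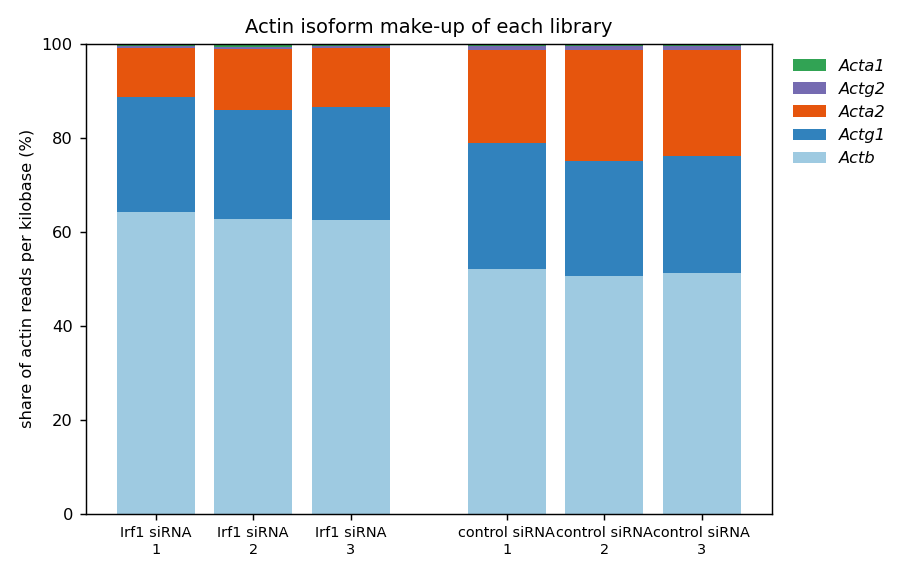
Share of each actin isoform in the actin reads per kilobase of each library (y axis, percent), with the 3 Irf1 siRNA libraries on the left and the 3 control siRNA libraries on the right. The orange Acta2 segment covers 10.5% to 13.0% with Irf1 siRNA and 19.7% to 23.6% with control siRNA, while Actg2 and Acta1 are thin bands below 1% and Actc1 is at 0.

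Ratios of counts between members inside each library show where isoforms parted. In all, 10 ratios were compared, and since 0.1 is the smallest exact permutation p here, none could pass (adjusted over the ratios, 0.125 at best). The log2 ratio of Acta2 to Actb was −2.69 ± 0.178 with Irf1 siRNA and −1.52 ± 0.159 with control siRNA (SD, n = 3 each), a difference of −1.17 with no overlap (exact permutation p = 0.1). The log2 ratio of Actg1 to Actb differed by −0.37, also with no overlap, so Actg1 was lower relative to Actb in these Irf1 siRNA libraries. Actg2 was lower relative to Acta2 as well, by −0.33, with −5.51 to −5.37 with Irf1 siRNA and −5.16 to −5.02 with control siRNA.

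The log2 ratio of Acta1 to Actb differed by −0.05, with −7.74 ± 0.158 with Irf1 siRNA and −7.69 ± 0.0886 with control siRNA, with overlapping values (exact permutation p = 0.8). The log2 ratio of Mrtfb to Mrtfa differed by −0.22 without overlap, and that of Srf to Mrtfa by −0.16 with overlap (exact permutation p = 0.2). The log2 ratio of Acta2 to Srf differed by −1.09, with 2.61 to 3.26 with Irf1 siRNA and 3.73 to 4.30 with control siRNA. In these libraries the actin transcript was thus lower by more than that of Srf.

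The pathway around the members was described by lists of its genes. Of 47 genes listed, 46 had enough counts to be tested, all but Myh11. These 46 genes are known as SRF-MRTF targets of the cytoskeleton and contractile apparatus and were chosen with earlier results known. Of them, 30 fell and 4 rose (edgeR), or 65.2% lower and 8.7% higher, against 12.0% and 10.4% of all tested genes. Their median log2 fold change was −0.31, against 0.00 over all tested genes. The largest change by adjusted p was that of Csrp1, a LIM protein of smooth muscle, with 50.8 CPM with Irf1 siRNA and 187.2 CPM with control siRNA (log2 fold change −1.88, SE 0.07, adjusted p = 1.29e-10). The log2 fold change was −1.5 for the calponin Cnn2, −0.75 for Tgfb1i1, which encodes the focal adhesion protein Hic-5, and −1.94 for Cnn1, the calponin of smooth muscle. Cnn1 averaged 3.67 CPM with Irf1 siRNA and 14.2 CPM with control siRNA.

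The 4 list members that rose were the kinase gene Nuak1 (log2 fold change 0.37), the filamin Flnc (0.41), the LIM protein Fhl1 (0.24) and desmin, Des (0.43). The call of Fhl1 was lost when either Irf1 siRNA replicate 3 (adjusted p = 0.0634) or control replicate 1 (0.0974) was left out, and that of Des when any 1 of the 6 libraries was (0.0593 to 0.145). Outside the naming rule, and picked after their values were seen, Tagln, Myl9, Tpm1 and Myh9 had log2 fold changes of −0.85, −1.15, −0.54 and −0.49, all past the threshold, whereas Ccn2 gave a log2 fold change of 0.08, Thbs1 −0.07 and Zyx −0.15, none of them past the threshold.

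The list for the other arm of SRF held early genes linked to TCFs, and which factor drove each of them here was not tested. Of 20 tested, 9 rose and 2 fell, or 45.0% higher against the 10.4% of all tested genes, and their median log2 fold change was 0.38. Dusp6, a phosphatase gene induced by ERK signalling, had 43.1 CPM with Irf1 siRNA and 28.1 CPM with control siRNA (log2 fold change 0.61, SE 0.08, edgeR adjusted p = 4.15e-05). The survival gene Mcl1 rose by 0.37, the transcription factor genes Klf4 by 0.43 and Egr1 by 0.45. Fos, added after its value was seen, gave 0.74 (SE 0.29) with an adjusted p of 0.162.

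The kinase gene Pim1 fell by 0.26, a call lost without control replicate 2 (adjusted p = 0.0715) or 3 (0.0632). Ier3 fell by 0.19, lost without Irf1 siRNA replicate 2 (0.126) or 3 (0.0962) and without control replicate 1 (0.0529), 2 (0.0898) or 3 (0.123).

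**Figure D5:**
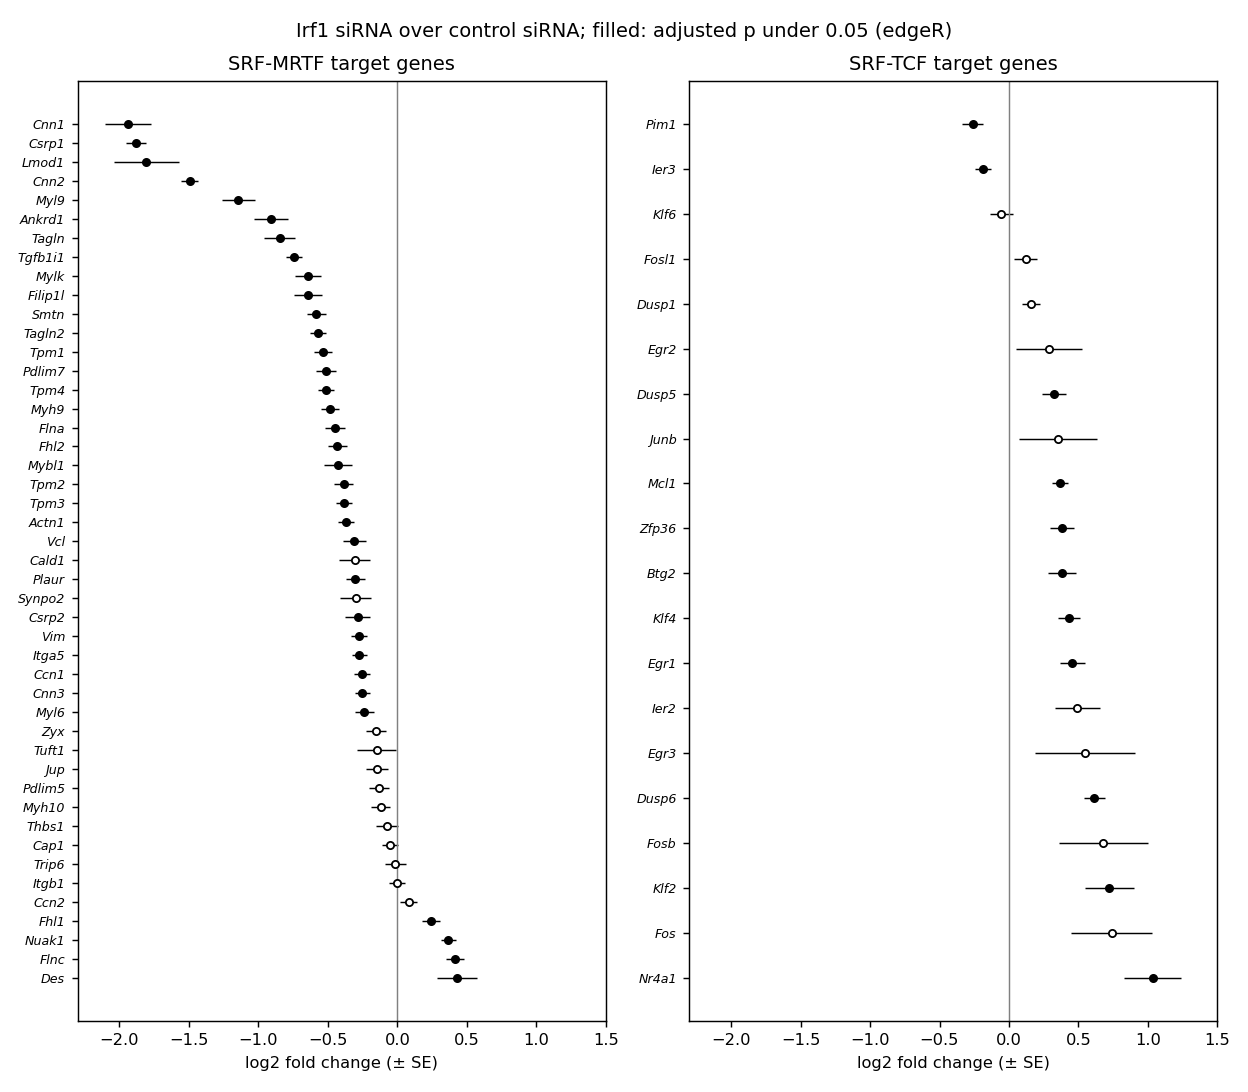
Log2 fold change of Irf1 siRNA over control siRNA (x axes, ± SE) for the 46 tested genes of the SRF-MRTF list (left) and the 20 tested genes of the SRF-TCF list (right), filled where the edgeR adjusted p was under 0.05. On the left 30 filled points lie below 0 and 4 above, and on the right 2 lie below 0 and 9 above.

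Among 14 tested partner factors of SRF (17 listed), 3 rose and 2 fell, or 21.4% higher and 14.3% lower, against 10.4% and 12.0% of all tested genes, with a median log2 fold change of 0.08. Of the 3 TCF genes, 1 rose and 1 fell. Elk1 rose by 0.37 (32.0 CPM with Irf1 siRNA and 24.7 CPM with control siRNA, edgeR adjusted p = 0.00111), and Elk4 fell by 0.37 (27.5 CPM with Irf1 siRNA and 35.5 CPM with control siRNA, edgeR adjusted p = 0.000908). Elk3, added after its value was seen, had a log2 fold change of 0.03 (78.7 CPM with Irf1 siRNA and 76.9 CPM with control siRNA, edgeR adjusted p = 0.724). The other 3 calls were each lost when single libraries were left out. Hipk2, a kinase gene, fell by 0.43, lost without Irf1 siRNA replicate 1 (adjusted p = 0.0568) or control replicate 1 (0.0707) or 3 (0.0555). Nkx3-2, a chondrogenic repressor, rose by 0.36, lost without Irf1 siRNA replicate 1 (0.0548) or 2 (0.0673) or control replicate 1 (0.0578) or 3 (0.0604). Prkg1, a kinase gene of smooth muscle, rose by 0.37, lost without Irf1 siRNA replicate 2 (0.0739) or 3 (0.0866) or control replicate 1 (0.0674) or 2 (0.0688).

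Of 20 tested genes of the Arp2/3 complex, which branches actin filaments, and its activators, 6 fell and 4 rose, or 30.0% lower and 20% higher against 12.0% and 10.4% of all tested genes, with a median log2 fold change of −0.01. The alternative subunits of the complex parted: Arpc1a fell by 1.23 on the log2 scale (22.0 CPM with Irf1 siRNA and 51.6 CPM with control siRNA), and Arpc1b rose by 0.29 (337.0 CPM with Irf1 siRNA and 275.9 CPM with control siRNA), with edgeR adjusted p of 1.05e-08 and 0.00109. Wasl, which encodes the activator N-WASP, fell by 0.74, Abi2 by 0.39 and Nckap1 by 0.26, both of the WAVE complex, and Wipf1, a WASP partner, rose by 0.36. Arpc5l rose by 0.20, lost without Irf1 siRNA replicate 1 (adjusted p = 0.116) or 3 (0.0531) or control replicate 2 (0.075) or 3 (0.108). Brk1 rose by 0.16, lost without any library but Irf1 siRNA replicate 2 (0.0556 to 0.161).

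Of 18 tested genes that fold or modify actin, 3 fell and 1 rose, or 16.7% lower and 5.56% higher against 12.0% and 10.4% of all tested genes, with a median log2 fold change of 0.02. The chaperonin subunit gene Tcp1 fell by 0.20, a call lost (adjusted p = 0.0507) when Irf1 siRNA replicate 3 was left out, and its cofactor Pdcl3 by 0.24, lost without control replicate 3 (0.0591). The prefoldin gene Pfdn6 fell by 0.21, lost without any library but Irf1 siRNA replicate 1 (0.0689 to 0.171). Setd3, the actin histidine methyltransferase gene, rose by 0.17, lost without any library but Irf1 siRNA replicate 1 (0.0779 to 0.199).

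Markers of other cells that make muscle actins were measured beside these results. Of 13 smooth muscle and mural markers, Kcnj8 and Abcc9 had at most 2 counts in any library, Myh11, the myosin that defines mature smooth muscle, had 2 to 3 counts with Irf1 siRNA and 5 to 9 with control siRNA, and Rgs5 had 5 to 10 with Irf1 siRNA and 7 to 11 with control siRNA. The sums of the list overlapped, at 969.5 to 1115 CPM with Irf1 siRNA and 1049 to 1181 CPM with control siRNA. Cspg4, Smtn and Pdgfrb made up most of each sum. Of its 9 tested genes 2 fell, Lmod1 and Smtn, and 2 rose, Des and Mcam, or 22.2% each way against 12.0% lower and 10.4% higher of all tested genes, and all but Mcam are also in the SRF-MRTF list. Lmod1 had 15 to 41 counts with Irf1 siRNA and 89 to 122 with control siRNA. Skeletal muscle genes Myog, Myf5, Myf6 and Myh8 and the cardiac genes Myh6 and Nkx2-5 had 0 counts in every library. Other genes of these lists were detected in every library. The skeletal marker Tnni2 had 172 to 205 counts with Irf1 siRNA and 201 to 239 with control siRNA. Tnnt3 had 107 to 131 and 112 to 133, Ryr1 37 to 40 and 50 to 65, and the cardiac marker Tnnt2 50 to 55 and 35 to 62. The 14 skeletal markers summed to 15.0 to 16.1 CPM with Irf1 siRNA and 13.9 to 15.4 CPM with control siRNA, and the 8 cardiac markers to 2.03 to 2.84 CPM with Irf1 siRNA and 1.63 to 2.26 CPM with control siRNA. None of the tested genes of these 2 lists (4 skeletal, 1 cardiac) passed the threshold.

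Of 12 markers of fibroblasts and dedifferentiated chondrocytes, 4 fell (Col1a1, Col1a2, Col3a1 and Fbn1) and 0 rose, or 33.3% lower against 12.0% of all tested genes, and their sum was 7111 to 8415 CPM with Irf1 siRNA and 9194 to 10940 CPM with control siRNA, with no overlap. Like the smooth muscle actins, that sum was lower with Irf1 siRNA, and its part in their fall was not tested. Col1a1, Col1a2 and Col3a1 made up most of each sum. The 8 markers of this list that were not called had log2 fold changes from −0.30 (Thy1) to 0.97 (S100a4, with 7 to 46 counts per library). Within the groups the libraries did not rank alike. Col1a1, Col1a2 and Col3a1 were highest in replicate 1 of each group, where Acta2 and Actg2 were lowest. Fbn1 was lowest in replicate 1 with Irf1 siRNA and highest in replicate 1 with control siRNA. Some chondrocyte markers, such as Col2a1, Comp and Matn1, were also highest in replicate 1 of each group, while others, such as Sox6 and Hapln1, were not. Ranks of 3 libraries per group are a description only, and no test was made of them. Of the 16 chondrocyte markers, 1 fell (Hapln1) and 1 rose (Sox6), or 6.25% each way against 12.0% lower and 10.4% higher of all tested genes. Macrophage and osteoclast markers summed to 37.6 to 55.5 CPM with Irf1 siRNA and 36.0 to 45.3 CPM with control siRNA. Of 5 tested genes 1 rose (Cd68) and 0 fell, against 10.4% higher and 12.0% lower of all tested genes. Ctsk had 323 to 677 counts with Irf1 siRNA and 350 to 594 with control siRNA. Acp5 had 248 to 269 and 308 to 353, Cd68 199 to 246 and 156 to 223, and Mrc1 63 to 98 and 68 to 119. Csf1r had 6 to 15 counts per library and Ptprc 2 to 12, while Adgre1 had 0 throughout. Endothelial markers summed to 2.25 to 2.48 CPM with Irf1 siRNA and 1.82 to 2.26 CPM with control siRNA, and neither of the 2 tested genes passed the threshold.

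The promoter motif was also set beside the calls. Of tested genes with a promoter at hand, an exact CArG box was found in 44 of 1353 lower genes (3.25%), 18 of 1189 higher genes (1.51%) and 106 of 8164 genes not past the threshold (1.3%). In the SRF-MRTF list it was found in 8 of 39 genes, of which 26 were lower and held 6 of the boxes. With 1 core base allowed to be C or G, the shares were 12.0% of lower, 10.7% of higher and 10.3% of other genes. These shares describe the sequence windows and no test was made of them.

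Short words in 3′ untranslated regions had been picked earlier because they go with lower transcripts in these same libraries. They are ACTGATC with its form shifted by 1 base, CTGATCA, and a second pair, GCTATCT with its form shifted by 1 base, CTATCTA. At least 1 of them was present, by GENCODE M21 transcripts and on the transcript strand, in 46.7% of 1704 lower genes, 16.1% of 1416 higher genes and 22.9% of 9717 genes not past the threshold, or 25.3% of all 12837. None of the 10 members held one in the 3′ untranslated region, and Acta2 held one in its coding sequence. In the SRF-MRTF list, 10 of 46 genes held one, Csrp1, Cnn2 and Tgfb1i1 among them but not Cnn1. So did the other lower genes Arpc1a, Wasl, Abi2, Nckap1 and Elk4, while Tcp1 and Pfdn6 held one in the coding sequence alone. Among named genes that rose, Mcl1 and Prkg1 held one in the 3′ untranslated region and Setd3 in the coding sequence. Of the 10 list genes with a word, 9 were lower, against 795 of 3252 tested genes with one. Of the 36 list genes without a word, 21 were lower (58.3%), against 909 of 9585 tested genes without one (9.48%). Since the words were chosen on these samples, and the list with earlier results known, none of these shares is independent evidence. What part the words had in the falls of the list was not tested.

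The genes most like Acta2 across the 6 libraries, by Pearson correlation of log2 CPM, were Cnn1 (0.9975), Rgs4 (0.9973), which encodes a regulator of G-protein signalling, and M6pr (0.9972), a mannose-6-phosphate receptor gene. The comparison covered 10457 genes averaging 5 CPM or more. Those most like Srf were Calm3 (0.9967), a calmodulin gene, Gnptg (0.9908) and Tdrd7 (0.9902). These correlations rest on 6 points in 2 groups that share depth differences, and are given as a description.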

How the data were processed

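Per the labels' protocols, libraries were made with a stranded kit for polyadenylated mRNA. For each library the authors deposited whole-number counts per gene, without normalisation. Per the submitters' processing notes, Trimmomatic 0.39, FastQC and STAR were used with GRCm39 (mm39). Which tool, annotation and strand setting gave the counts is not given in the sources used here. Actin coding sequences are nearly identical between isoforms and their pseudogenes, so reads that match several can be lost or shared, and Mrtfa overlaps Sgsm3 on the opposite strand; values of these genes are uncertain to that extent.

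From the counts, edgeR 4.0.16 in R 4.3.3 kept 14683 genes (filterByExpr), scaled libraries by TMM and tested Irf1 siRNA against control siRNA with the quasi-likelihood F test (robust, two-sided, no covariate). Benjamini-Hochberg adjustment ran over all tested genes, with calls under 0.05. The SE was obtained from the log2 fold change and the square root of F. The fit was tested on simulated data. Exon lengths and transcripts came from GENCODE M21 and promoters from RefSeq, both GRCm38, matched by identifier or symbol. Alternatives were DESeq2 1.42.0, RLE and upper-quartile scaling, no filter or a stricter one, a replicate block and leaving out each library.

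Members and lists were chosen with earlier results of these data known. Named genes are all members and, from each pathway list, up to 4 called genes per direction with the smallest adjusted p, plus the 3 genes most like Acta2 and Srf. Another list is not reported here. Actmap was listed but not found by that symbol and was not analysed here.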

Additional observations from a re-analysis of the deposited data

How the results depend on the processing

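The falls of Acta2, Actg2, Actg1, Mrtfb and Myocd kept their direction and their call under every alternative that could test them; Myocd was left out by the filter of at least 1 CPM in 3 libraries. Their log2 fold changes ranged from −1.45 to −1.21 for Acta2 (adjusted p 1.22e-18 to 0.0146), −1.72 to −1.49 for Actg2, −0.54 to −0.48 for Actg1, −0.34 to −0.23 for Mrtfb (adjusted p 0.00111 to 0.0378) and −1.58 to −1.21 for Myocd (adjusted p 0.000463 to 0.0271). Members called lower numbered 4 to 6 over all alternatives. No sign turned among the 48 genes tracked; 507 of their 575 alternative values stayed on the same side of the threshold. Among the genes named above, and besides the losses given there for single libraries, calls were lost with DESeq2 for Des, Brk1, Pfdn6 and Setd3 (adjusted p 0.127, 0.0579, 0.0876 and 0.0635), with no filter on low counts for Des, Brk1 and Setd3 (0.0786, 0.121 and 0.112) and with upper-quartile scaling for Ier3 and Pfdn6 (0.0678 and 0.0755).

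Genes called higher over the series numbered 959 to 1398 when single libraries were left out, with 959 without Irf1 siRNA replicate 3 and 980 without control replicate 2, and genes called lower 1276 to 1716. SRF-MRTF targets called lower ranged from 28 to 33. Those called higher were 2 without Irf1 siRNA replicate 3 and 2 without control replicate 1, and up to 3 without the others. The muscle share of actin differed by −11.5 to −9.56 percentage points when single libraries were left out and by −9.06 in plain counts. With Actg1 in place of Actb, the log2 ratio of Acta2 differed by −0.799; Actg1 was itself lower. With Actb it was −1.26 to −1.07 when single libraries were left out.

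With the replicate number as a block, 1744 genes were higher and 1984 lower, 6 members and 32 SRF-MRTF targets were lower, Srf had an adjusted p of 0.0323 (log2 fold change −0.21), and Brk1 and Setd3 lost their calls (0.0544 and 0.052). Deviations from the group means of same-numbered libraries correlated at 0.195, −0.045 and 0.052, and not every library correlated best with its own number, so the pairing is not established. Depth limits Myocd, with 9 to 43 counts per library, and Actc1.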
